A study of Mus musculus with 9 samples.

Results

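The presynaptic vesicle and release genes described here are 37 mouse genes, taken by symbol from a fixed list of synapsins, vesicle membrane proteins, synaptotagmins, fusion proteins, Rab3 GTPases, active zone proteins, transmitter loading and synthesis genes, and retrieval proteins. All 37 were found among the 33641 genes of the deposited table, and all 37 were among the 17398 genes that passed the filter on low counts. The lowest count of any of them in any library was 158, for Syn3.

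Bulk RNA sequencing was done on 1 dissected piece of brain per mouse, which took in thalamus, hypothalamus and midbrain, from untreated mice aged 7.5 months, with 1 library for each of 3 PG9VN, 3 PG9V and 3 WT mice. PG9VN and PG9V model neuronopathic Gaucher disease, in which lipid builds up in lysosomes and neurons are affected. As general knowledge of these lines, which the labels do not spell out, both lack progranulin (Grn) in all cells of the body. The labels name the genotypes without listing their alleles. The labels give no sex, strain, litter or batch, and the replicate numbers used here are only names.

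At a chemical synapse, transporters load vesicles with transmitter, synapsins hold a reserve of vesicles, and active zone proteins dock and prime some of them at the membrane. Calcium that enters the terminal binds synaptotagmins, the SNARE proteins of vesicle and membrane zip together under the control of complexins, and the vesicle fuses. Dynamin, amphiphysin, endophilin and synaptojanin then help to retrieve the membrane. Most of these genes are used by nearly all neurons, while a few mark a class of neuron, such as Slc17a7 for glutamate neurons of cortex and hippocampus and Gad1, Gad2 and Slc32a1 for GABA neurons.

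Total counts were 27150500 to 35349217 per library. Values below are in CPM, that is counts scaled to the size of the library with edgeR's TMM factors, and a gene was called when its adjusted p in edgeR's quasi-likelihood test was under 0.05, with Benjamini-Hochberg adjustment over all genes tested. Grn, which is disrupted in both mutant lines, averaged 4.17 ± 0.57 CPM in PG9VN, 3.89 ± 1.15 CPM in PG9V and 50.1 ± 4.77 CPM in WT libraries (SD, n = 3 each). PG9VN replicate 2 stood apart from the other 8 libraries. On the log2 scale, with the WT mean set to 0, its hypothalamic neuropeptides averaged -3.01, against 0.73 and 1.04 in PG9VN replicates 1 and 3, its striatum markers -1.76, against 0.92 and 0.97, and its cortex and hippocampus markers 1.15, against -0.65 and -0.66. PG9V replicate 3 was high in cerebellum markers, at 2.81. In PG9VN against WT, fold changes of the 37 genes are therefore given with and without PG9VN replicate 2. The same was done for fold changes or called counts of the marker lists of regions, neurons, microglia and astrocytes. Single transcripts and length classes were fitted with all libraries alone. WT replicate 1 and PG9V replicate 2 had 13 and 8 counts of the Y-linked gene Ddx3y, against 1173 to 2466 in the other libraries. Every PG9VN library was among those others, so Ddx3y was uneven between the genotypes. Without both libraries none of the 37 genes was called in PG9VN against WT, where 1.76% of all genes were still called lower and 5.82% higher. That fit also had fewer WT and PG9V libraries, and the part of the Ddx3y difference was not tested.

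Of the 37 presynaptic genes, 5 fell and 1 rose in PG9VN brain tissue relative to WT. The genes that fell were Sv2a, Syt4, Cplx1, Rab3c and Pclo, and the gene that rose was Syt5. This is 13.5% of the list lower and 2.70% higher, while 18.7% of all genes tested were called, 7.22% lower and 11.5% higher. For 30 of the 37 genes (81.1%) the log2 fold change was below 0, against 48.1% of all genes, and the median was -0.27 over the list and 0.02 over all genes. Before adjustment, p was under 0.05 for 12 of the 37 genes lower and 2 higher, against 2480 lower and 3259 higher of all 17398 genes. The 3 PG9VN libraries lay wholly below the 3 WT libraries for 9 of the 37 genes and wholly above for 2, while 17.2% of all genes lay wholly below and 20.3% wholly above. Leaving out WT replicate 1 or WT replicate 3 gave 3 and 2 genes lower, where 3.02% and 3.19% of all genes were lower. DESeq2 called 7 genes lower, the same 5 with Syt11 and Synj1, and 2 higher, Syt5 and Syn2, against 10.5% and 13.2% of all genes. The most abundant transcript of each gene alone gave 7 lower, the 5 with Syt11 and Dnm1, against 5.17% of all genes. In bulk tissue, fewer neurons or terminals and less RNA per neuron cannot be told apart.

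Without PG9VN replicate 2 the count was larger: 17 of the 37 genes were called lower (45.9%) and 1 higher, against 11.4% and 13.4% of all genes. The median was -0.38. This fit left only 2 PG9VN libraries, and the library left out was picked after these data were seen. PG9VN replicate 2 was the farthest from its genotype's mean for most of the 37 genes, so leaving it out also lowers the spread within PG9VN. The values without it are therefore not a second, independent result. The genes added to the 5 were Syn1, Syp, Syt1, Syt7, Syt11, Snap25, Vamp2, Rab3a, Dnm1, Amph, Sh3gl2 and Synj1. All 5 genes called lower with every library, and Syt5, were called in the same direction without it. In the same fit thalamus markers had a median log2 fold change of -1.41 with 9 of 14 lower, and hypothalamic neuropeptides 0.72 with 4 of 14 higher. Striatum markers had 0.90 with 0 of 12 called, and cortex and hippocampus markers -0.60 with 3 of 15 lower and 1 higher. Cerebellum markers had -0.48 with 1 of 12 lower. With all libraries these medians were, in the same order, -1.39, 0.49, 0.42, 0.35 and -0.43. Thalamus markers then had 9 of 14 lower, hypothalamic neuropeptides 1 of 14 higher, and cortex and hippocampus markers 1 of 15 lower. Striatum and cerebellum markers had 0 of 12 called each. The part of these region markers in the larger count was not tested.

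General neuron markers had a median log2 fold change of -0.27 in PG9VN against WT, with 6 of 19 lower and 0 higher (11 of 19 lower without PG9VN replicate 2), and their summed level was 6634 to 7993 CPM in PG9VN, 8040 to 8334 CPM in PG9V and 8599 to 8810 CPM in WT libraries. Thalamus markers had 9 of 14 lower, with 400.1 to 612.6 CPM in PG9VN, 793.6 to 872.8 CPM in PG9V and 1041 to 1232 CPM in WT libraries. Microglia and macrophage markers had 13 of 14 higher, at 1664 to 2267 CPM in PG9VN, 793.6 to 1179 CPM in PG9V and 432.4 to 494.4 CPM in WT libraries. Astrocyte markers had 7 of 12 higher, at 9314 to 11820 CPM in PG9VN, 8133 to 9530 CPM in PG9V and 6333 to 6653 CPM in WT libraries. Of all genes, 7.22% were lower and 11.5% higher with all libraries, and 11.4% and 13.4% without PG9VN replicate 2. The counts of called thalamus, microglia and astrocyte markers were the same without PG9VN replicate 2. None of these markers was at 0 in any library. The part of these shifts in the presynaptic results was not tested.

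**Figure D1:**
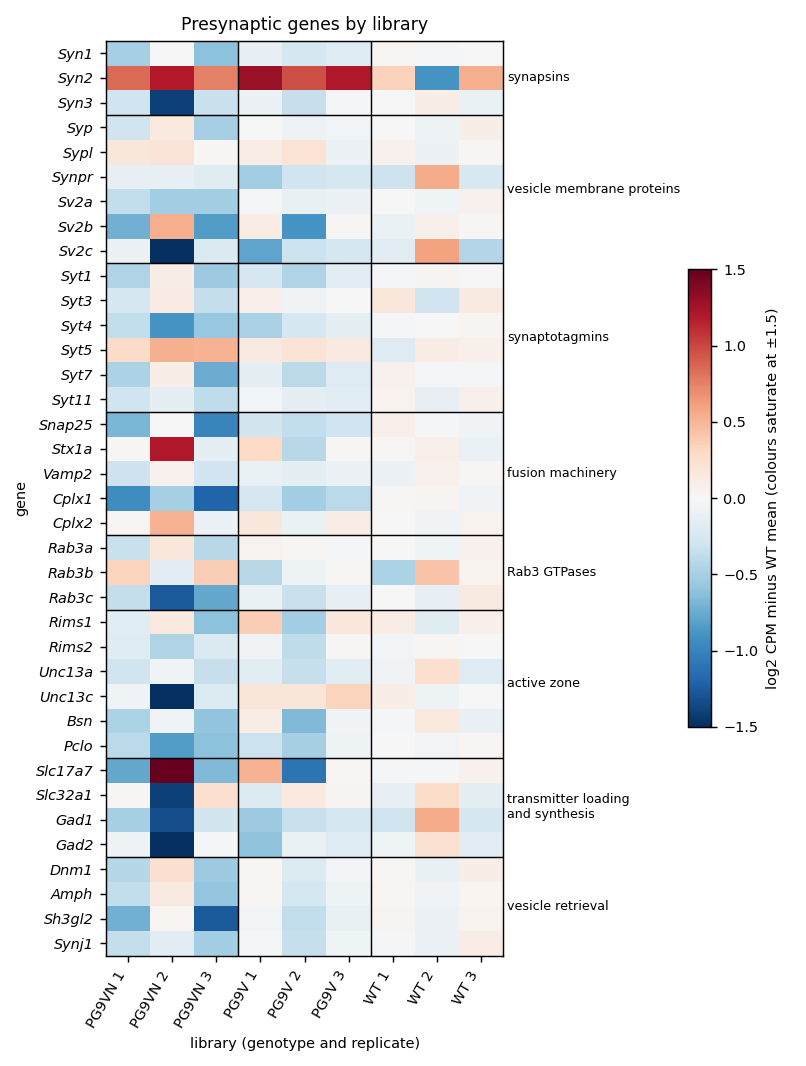
Level of each of the 37 presynaptic genes (rows, grouped by role) in each of the 9 libraries (columns, PG9VN, PG9V and WT), as log2 CPM minus the mean of the 3 WT libraries, with colours that saturate at ±1.5. PG9VN replicates 1 and 3 are blue, that is lower than WT, over most rows, while PG9VN replicate 2 is red for Slc17a7 and Stx1a and blue for Sv2c, Unc13c and Gad2.

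The genes varied among themselves mainly along 2 patterns. In a principal component analysis of their log2 levels, the first component held 58.9% of the variance and set PG9VN replicate 2, at 4.78, apart from the other 8 libraries, at -1.43 to 0.68. The second held 25.5% and set WT apart from both mutants, which overlapped, with PG9VN at -2.12 to -0.36, PG9V at -0.95 to 0.52 and WT at 1.05 to 1.55. PG9VN replicate 2 was the library farthest from its genotype's mean for most of the 37 genes. By TPM, which also divides by transcript length and so allows genes to be ranked, the highest in WT were Snap25, at 1811 TPM, then Vamp2 at 856, Syp at 830, Dnm1 at 777 and Cplx1 at 687 TPM, and the lowest was Syn3 at 15.0 TPM. Cplx1 averaged 333 ± 46.6 TPM in PG9VN and 687 ± 19.0 TPM in WT libraries (SD, n = 3 each).

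The starts of 4 of the genes that fell are shown here because they let a reader compare the promoters of genes called together. Each runs 5′ to 3′ from 250 bases before to 50 bases after the RefSeq start, on GRCm38.p6, an earlier build than the mm39 named for the deposited data. Capitals mark matches to the GC box GGGCGG on either strand.
Sv2a promoter, chr3:96180977-96181276, plus strand: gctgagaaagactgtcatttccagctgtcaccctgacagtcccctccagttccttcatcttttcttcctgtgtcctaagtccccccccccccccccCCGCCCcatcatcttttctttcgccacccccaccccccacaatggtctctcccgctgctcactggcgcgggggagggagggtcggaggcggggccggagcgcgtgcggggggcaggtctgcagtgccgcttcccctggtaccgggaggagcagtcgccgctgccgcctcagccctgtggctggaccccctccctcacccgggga
Cplx1 promoter, chr5:108549978-108550277, minus strand: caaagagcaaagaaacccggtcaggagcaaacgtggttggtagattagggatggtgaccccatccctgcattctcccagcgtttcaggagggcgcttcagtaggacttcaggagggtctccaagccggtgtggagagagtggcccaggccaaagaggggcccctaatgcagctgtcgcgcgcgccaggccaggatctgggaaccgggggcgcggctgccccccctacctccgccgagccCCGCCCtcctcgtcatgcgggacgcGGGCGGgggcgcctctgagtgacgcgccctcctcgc
Rab3c promoter, chr13:110280157-110280456, minus strand: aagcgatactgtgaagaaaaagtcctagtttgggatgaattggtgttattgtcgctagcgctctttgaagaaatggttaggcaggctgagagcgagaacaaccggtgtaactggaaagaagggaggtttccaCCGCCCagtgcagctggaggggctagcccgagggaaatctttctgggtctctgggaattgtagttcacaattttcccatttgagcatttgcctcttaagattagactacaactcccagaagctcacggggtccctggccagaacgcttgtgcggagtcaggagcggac
Pclo promoter, chr5:14514668-14514967, plus strand: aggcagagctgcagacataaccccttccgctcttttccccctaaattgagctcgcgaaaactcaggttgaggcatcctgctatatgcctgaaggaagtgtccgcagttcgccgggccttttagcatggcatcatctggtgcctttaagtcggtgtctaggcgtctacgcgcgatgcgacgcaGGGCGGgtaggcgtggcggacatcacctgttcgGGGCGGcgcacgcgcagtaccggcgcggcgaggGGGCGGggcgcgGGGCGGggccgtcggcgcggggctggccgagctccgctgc
The windows held 1 GC box in Sv2a, 2 in Cplx1, 1 in Rab3c and 4 in Pclo. Over the 30 genes of the list that the RefSeq table holds, 24 of 39 windows (61.5%) had at least 1, against 35.7% of all windows. The other motifs searched on both strands were a CRE (TGACGTCA), in 2 of 39 windows (5.13%) and 1.79% of all, and a TATA box (TATAAA), in 4 windows (10.3%) and 13.6% of all. None of the 4 printed windows matched either of these. A match is only a run of letters, and nothing was measured on these promoters.

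None of the 3 synapsins, which tether vesicles to each other and to actin, was called by edgeR with all libraries. Syn1 had 309.5, 433.2 and 285.5 CPM in PG9VN replicates 1 to 3, 402.2, 362.4 and 380.3 CPM in PG9V and 444.1, 428 and 436.9 CPM in WT libraries. PG9VN replicates 1 and 3 lay below every WT library and replicate 2 within their range. On the log2 scale the difference was -0.35 ± 0.15 (SE, adjusted p = 0.132), and -0.56 ± 0.08 without PG9VN replicate 2 (adjusted p = 0.00101).

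Syn2 differed in the other direction in both mutants, without passing edgeR's test. It had 336, 424.8 and 315.7 CPM in PG9VN, 455.6, 363.1 and 429.3 CPM in PG9V and 236.7, 100.9 and 270.9 CPM in WT libraries. All 6 mutant libraries were above all 3 WT libraries, and WT replicate 2 was the lowest by far. Its log2 fold change was 0.82 ± 0.31 in PG9VN against WT (adjusted p = 0.104), 0.68 without PG9VN replicate 2 (adjusted p = 0.238), 0.81 with DESeq2, which called it higher (adjusted p = 0.0338), and 1.04 ± 0.31 in PG9V against WT (adjusted p = 0.18). Syn3 was the least abundant gene of the list, at 5.83 to 12.5 CPM in PG9VN, 12.2 to 15.1 CPM in PG9V and 14.5 to 16.5 CPM in WT libraries (-0.60 ± 0.25 in PG9VN against WT, adjusted p = 0.128, and -0.33 without PG9VN replicate 2, adjusted p = 0.0744). Timp genes lie inside introns of synapsin genes on the other strand, and the sources used here do not say whether the counting used strand.

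Sv2a, a glycoprotein of nearly all synaptic vesicles and the binding site of the antiepileptic drug levetiracetam, had the smallest adjusted p of the 37 genes. It had 422.1, 379 and 380.2 CPM in PG9VN, 535.5, 506.4 and 512.5 CPM in PG9V and 542.6, 522 and 572.2 CPM in WT libraries. All PG9VN libraries, replicate 2 included, lay below all 6 others, and PG9V overlapped WT. In PG9VN against WT its log2 fold change was -0.47 ± 0.09 (adjusted p = 0.00624), and -0.45 without PG9VN replicate 2 (adjusted p = 0.00365).

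The other SV2 genes, Sv2b and Sv2c, had PG9VN replicate 2 far from the other PG9VN libraries. Sv2b had 119, 288.1 and 110.6 CPM in PG9VN, 212.5, 107.1 and 199.5 CPM in PG9V and 184.4, 207.9 and 199.5 CPM in WT libraries, so replicate 2 was above every WT library and replicates 1 and 3 below. Sv2c, which in mouse is strongest in basal ganglia and brainstem, had 115.8, 18.4 and 106 CPM in PG9VN, 71.1, 98.7 and 103.2 CPM in PG9V and 109.8, 187.6 and 91.2 CPM in WT libraries. Neither was called with all libraries (-0.19 and -0.69, adjusted p = 0.77 and 0.443) or without PG9VN replicate 2 (-0.78 and -0.23, adjusted p = 0.079 and 0.663). Syp, synaptophysin, a major vesicle protein, had 757.7, 1035 and 661.2 CPM in PG9VN, 928.7, 890.3 and 906.1 CPM in PG9V and 931.4, 885.1 and 992 CPM in WT libraries, and was called without PG9VN replicate 2 (-0.40 ± 0.09, adjusted p = 0.00918) but not with it (-0.19 ± 0.15, adjusted p = 0.419). Its relatives Sypl and Synpr were not called with all libraries, at 0.13 and -0.20, or without PG9VN replicate 2, at 0.09 and -0.21. Synpr was at 71.4 to 74.8 CPM in PG9VN, 56.5 to 67.5 CPM in PG9V and 65.5 to 119.1 CPM in WT libraries, with WT replicate 2 the highest.

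Of the 6 synaptotagmins 1 fell, 1 rose and 4 were not called by edgeR with all libraries. Syt4, which does not bind calcium as Syt1 does and is found on dense-core and other vesicles, had 158.3, 111.3 and 137.6 CPM in PG9VN, 146.1, 170.4 and 184.9 CPM in PG9V and 201.3, 203.3 and 210.1 CPM in WT libraries. All 6 mutant libraries were below all WT libraries. Syt4 differed by -0.59 ± 0.13 on the log2 scale in PG9VN against WT (adjusted p = 0.0155), and -0.29 ± 0.13 in PG9V against WT (adjusted p = 0.366). Without PG9VN replicate 2 the adjusted p was 0.0112 (-0.47), and without WT replicate 3 it was 0.057 (-0.58).

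Syt5, a calcium-binding synaptotagmin, was the 1 gene of the list that rose. It had 105.9, 126.3 and 124.9 CPM in PG9VN, 95.6, 100 and 95.5 CPM in PG9V and 76.1, 94.2 and 91.9 CPM in WT libraries. The PG9VN libraries were above all others and the PG9V libraries above all WT libraries. Its log2 fold change was 0.45 ± 0.10 in PG9VN against WT (adjusted p = 0.0175) and 0.40 without PG9VN replicate 2 (adjusted p = 0.0214). It lost its call without PG9VN replicate 3 (0.41, adjusted p = 0.0569) and without WT replicate 1 (0.36, adjusted p = 0.0658).

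Syt1, the calcium sensor of fast release, had 740.3, 1085 and 694.1 CPM in PG9VN, 850.7, 736.9 and 903.8 CPM in PG9V and 986.3, 1042 and 1003 CPM in WT libraries. Syt7, a sensor of slow and asynchronous release, had 263.3, 391.5 and 217.9 CPM in PG9VN, 333.4, 275.9 and 320.4 CPM in PG9V and 381.9, 359.2 and 357.3 CPM in WT libraries. In both genes PG9VN replicate 2 was above every WT library and every other mutant library was below. Their log2 fold changes were -0.27 and -0.33 with all libraries (adjusted p = 0.303 and 0.261) and -0.50 and -0.61 without PG9VN replicate 2 (adjusted p = 0.00662 and 0.0038). Syt11, a synaptotagmin without calcium binding, had 596, 665.1 and 560.5 CPM in PG9VN, just below the 671.8 to 769.1 CPM of the WT libraries, with an adjusted p of 0.0975 over all libraries and 0.0162 without PG9VN replicate 2 (-0.34 ± 0.08). DESeq2 and the most abundant transcript alone called it lower (adjusted p = 0.0151 and 0.0341). Syt3 was not called by edgeR with all libraries, at -0.16, or without PG9VN replicate 2, at -0.33.

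**Figure D2:**
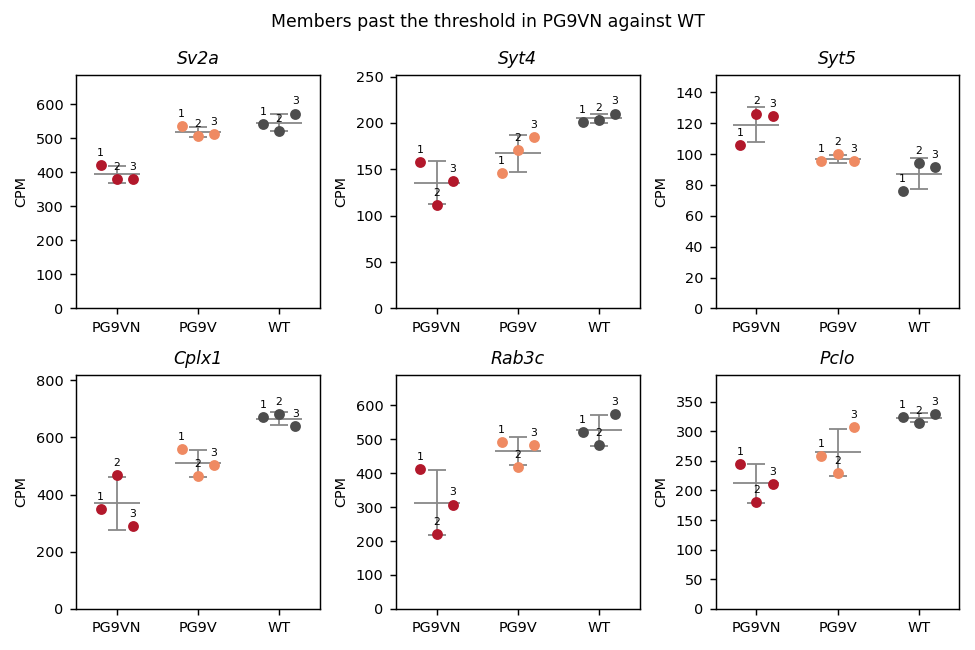
CPM in each library (points, numbered by replicate) of the 6 genes called in PG9VN against WT, with the mean and SD of each genotype in grey (n = 3 each) and axes that start at 0. In each panel the PG9VN points lie wholly on 1 side of the WT points, and for Cplx1, Syt4 and Pclo all PG9V points are below the WT points too.

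Cplx1, complexin, which clamps and then promotes SNARE-driven fusion, fell most among the 37 genes. It had 347.8, 469.4 and 289.6 CPM in PG9VN, 560.1, 466 and 501.8 CPM in PG9V and 672.8, 682.7 and 640.5 CPM in WT libraries. Every mutant library was below every WT library, and among the PG9VN libraries replicate 2 was the highest. On the log2 scale the difference was -0.85 ± 0.16 in PG9VN against WT (adjusted p = 0.00769) and -1.07 ± 0.10 without PG9VN replicate 2 (adjusted p = 0.000204). Its paralogue Cplx2 was not called, at 921.1, 1302 and 854.6 CPM in PG9VN, 1019, 848.2 and 974.8 CPM in PG9V and 901.7, 874.9 and 941.9 CPM in WT libraries (0.18 with all libraries and -0.03 without PG9VN replicate 2, adjusted p = 0.475 and 0.84). The difference between Cplx1 and Cplx2 was not tested.

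Snap25, the membrane SNARE that is the target of some botulinum toxins, had 1005, 1613 and 815.9 CPM in PG9VN, 1340, 1258 and 1319 CPM in PG9V and 1703, 1601 and 1557 CPM in WT libraries. PG9VN replicate 2 lay within the WT range and the other 5 mutant libraries below it. The log2 fold change was -0.50 ± 0.21 with all libraries (adjusted p = 0.137) and -0.84 ± 0.10 without PG9VN replicate 2 (adjusted p = 5.16e-04). Vamp2, the vesicle SNARE, had 659.9, 853.9 and 670.1 CPM in PG9VN, 762.8, 740.5 and 771.4 CPM in PG9V and 773.2, 855.1 and 832.4 CPM in WT libraries, and again only PG9VN replicate 2 of the mutant libraries lay within the WT range. Its values were -0.17 with all libraries and -0.31 without PG9VN replicate 2 (adjusted p = 0.341 and 0.0186). Stx1a, a syntaxin of the membrane, had 57.9, 131.4 and 52.1 CPM in PG9VN, 70.4, 42.8 and 57.8 CPM in PG9V and 57.9, 60.4 and 53.3 CPM in WT libraries, with PG9VN replicate 2 the highest of all. Its log2 fold change was 0.49 ± 0.34 with that library (adjusted p = 0.351) and -0.06 without it.

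The Rab3 proteins are small GTPases that sit on vesicles and bind RIM proteins at the active zone. Rab3c fell, with 411.6, 219.6 and 307.7 CPM in PG9VN, 492.4, 417.3 and 483.9 CPM in PG9V and 522.5, 482.7 and 575.4 CPM in WT libraries. PG9VN replicate 2 was the lowest, and all PG9VN libraries were below all others. Rab3c differed by -0.75 ± 0.20 on the log2 scale (adjusted p = 0.0302) and -0.55 ± 0.13 without PG9VN replicate 2 (adjusted p = 0.0159). The call was lost without any 1 of PG9VN replicate 3, PG9V replicate 1 and WT replicates 1, 2 and 3, where the value was -0.74, -0.75, -0.76, -0.81 and -0.68 (adjusted p = 0.0809, 0.0512, 0.0809, 0.0557 and 0.101). Rab3a, the main brain form, had 320.3, 453.7 and 301.1 CPM in PG9VN, 418.9, 410.8 and 394.4 CPM in PG9V and 402.2, 384.7 and 421.7 CPM in WT libraries, with an adjusted p of 0.464 over all libraries and 0.00541 without PG9VN replicate 2 (-0.38 ± 0.07). Rab3b, at 35.1 to 50.3 CPM in PG9VN, 29.2 to 39.4 CPM in PG9V and 28.1 to 52.4 CPM in WT libraries, was not called with or without PG9VN replicate 2 (0.16 and 0.30, adjusted p = 0.684 and 0.419).

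The log2 fold changes of all 6 active zone genes were below 0, and 1 of them fell. Pclo, piccolo, a giant scaffold of the active zone, had 244.8, 180.2 and 210.5 CPM in PG9VN, 257.4, 228.7 and 307.1 CPM in PG9V and 324.7, 314.2 and 329.5 CPM in WT libraries. All mutant libraries were below all WT libraries. The log2 fold change was -0.61 ± 0.14 in PG9VN against WT (adjusted p = 0.0154) and -0.51 ± 0.12 without PG9VN replicate 2 (adjusted p = 0.0158). It lost its call without WT replicate 1 (-0.60, adjusted p = 0.0533) and without WT replicate 3 (-0.59, adjusted p = 0.0562).

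Bsn, bassoon, the related scaffold, had 270.4, 360.2 and 248.2 CPM in PG9VN, 403.1, 236.3 and 362.6 CPM in PG9V and 365.9, 414.5 and 346.8 CPM in WT libraries. It was not called with or without PG9VN replicate 2 (-0.36 and -0.54, adjusted p = 0.263 and 0.0992). Rims2, a RIM protein that recruits calcium channels and Rab3, had its 3 PG9VN libraries, at 50.5 to 61.0 CPM, below its WT libraries, at 67.1 to 70.7 CPM, without passing the test (-0.28, adjusted p = 0.123, and -0.20 without PG9VN replicate 2, adjusted p = 0.206). Rims1 and the priming factor Unc13a were not called with all libraries, at -0.18 and -0.24, or without PG9VN replicate 2, at -0.38 and -0.34. Unc13c, which in mouse is a Munc13 strong in cerebellar granule cells, had 131.6, 31.7 and 119.4 CPM in PG9VN, 156.9, 156.5 and 174 CPM in PG9V and 146.4, 130.9 and 137.3 CPM in WT libraries. Only PG9VN replicate 2 was far from the rest, and the log2 fold change was -0.55 with it and -0.14 without it (adjusted p = 0.399 and 0.249).

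None of the 4 genes of transmitter loading and synthesis was called in any comparison, and PG9VN replicate 2 gave their most extreme values among the PG9VN libraries. Slc17a7, the vesicular glutamate transporter VGLUT1, had 235.7, 1244 and 253.5 CPM in PG9VN, 576.2, 187.7 and 408.6 CPM in PG9V and 391.9, 392.2 and 418.4 CPM in WT libraries. The highest library and the 3 lowest were all mutant. Its log2 fold change in PG9VN against WT was 0.53 ± 0.64 (adjusted p = 0.616), and -0.72 ± 0.41 without PG9VN replicate 2 (adjusted p = 0.269).

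The GABA genes ran the other way in that library. Gad2, a GABA-synthesizing enzyme, had 369.5, 91.5 and 386.3 CPM in PG9VN, 256.4, 362.8 and 342.1 CPM in PG9V and 373.9, 457.2 and 345.9 CPM in WT libraries. Slc32a1, the vesicular GABA transporter, had 145.4, 54.3 and 169.3 CPM in PG9VN, 124.3, 158.7 and 146.8 CPM in PG9V and 131.4, 172.6 and 129.2 CPM in WT libraries. Outside PG9VN replicate 2, PG9VN overlapped WT for both genes and overlapped PG9V for Slc32a1, while for Gad2 PG9VN replicates 1 and 3 lay above all PG9V libraries. Gad1, the other GABA-synthesizing enzyme, had 358.2, 200.7 and 417.2 CPM in PG9VN, 344.3, 399.9 and 420.7 CPM in PG9V and 410.7, 743.6 and 418.9 CPM in WT libraries, where WT replicate 2 was the highest. With all libraries the log2 fold changes of Gad2, Slc32a1 and Gad1 in PG9VN against WT were -0.47, -0.23 and -0.69, and without PG9VN replicate 2 they were -0.06, 0.12 and -0.44 (lowest adjusted p 0.147). WT replicate 2 was also high in striatum markers, at 0.74 on the log2 scale, against -0.09 and -0.65 in WT replicates 1 and 3. The part of the dissected region in these values was not tested.

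**Figure D3:**
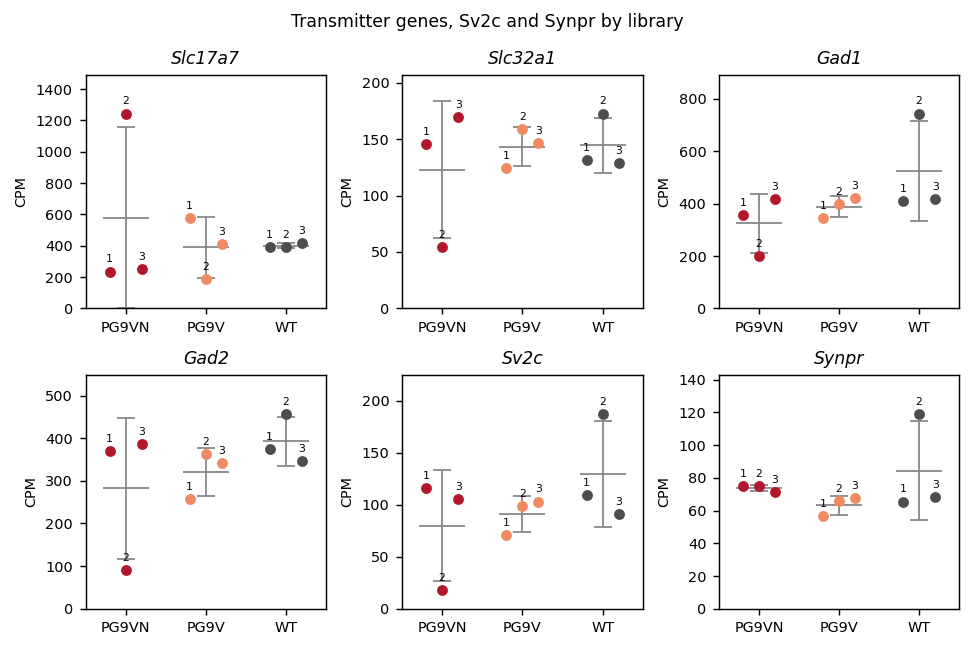
CPM in each library (points, numbered by replicate) of Slc17a7, Slc32a1, Gad1, Gad2, Sv2c and Synpr, with the mean and SD of each genotype in grey (n = 3 each) and axes that start at 0. PG9VN replicate 2 is the highest library for Slc17a7, at 1244 CPM, and the lowest for Slc32a1, Gad1, Gad2 and Sv2c, and WT replicate 2 is the highest for Slc32a1, Gad1, Gad2, Sv2c and Synpr.

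None of the 4 retrieval genes was called by edgeR with all libraries and all 4 were called lower without PG9VN replicate 2. Dnm1, dynamin, the GTPase that cuts the vesicle neck, had 716, 1130 and 655.1 CPM in PG9VN, 976.1, 833.1 and 936 CPM in PG9V and 972.7, 884.8 and 1026 CPM in WT libraries. Sh3gl2, endophilin, which bends membrane and recruits synaptojanin, had 134.2, 226.3 and 92.4 CPM in PG9VN, 215.6, 172.1 and 204.7 CPM in PG9V and 227.6, 208.9 and 229.3 CPM in WT libraries. For both, PG9VN replicates 1 and 3 were below all 7 other libraries. The log2 fold change of Sh3gl2 was -0.56 ± 0.27 with all libraries (adjusted p = 0.19) and -0.97 ± 0.15 without PG9VN replicate 2 (adjusted p = 0.00308), and that of Dnm1 was -0.21 ± 0.19 and -0.49 ± 0.10 (adjusted p = 0.499 and 0.00682). Amph, amphiphysin, which binds dynamin, was at -0.24 with all libraries and -0.48 without PG9VN replicate 2 (adjusted p = 0.346 and 0.00793). Synj1, a lipid phosphatase needed to strip clathrin from vesicles, had 278.8, 318.1 and 251.5 CPM in PG9VN, all below the 335 to 386.5 CPM of the WT libraries (-0.34 ± 0.12, adjusted p = 0.087, and -0.43 ± 0.11 without PG9VN replicate 2, adjusted p = 0.0192). With all libraries DESeq2 called Synj1 lower (-0.35, adjusted p = 0.0321), and edgeR on the most abundant transcript of each gene alone called Dnm1 lower (-1.15, adjusted p = 4.55e-04).

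**Figure D4:**
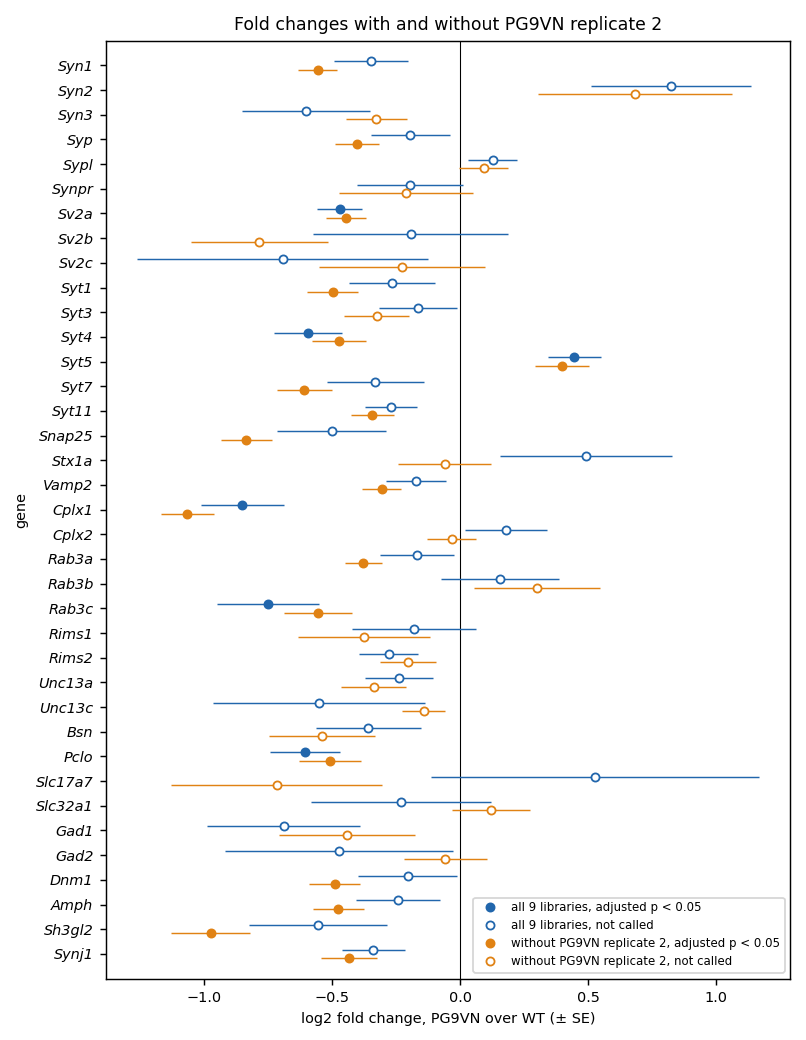
Log2 fold change of each of the 37 genes in PG9VN over WT (horizontal axis, points with SE bars), with all 9 libraries in blue and without PG9VN replicate 2 in orange, filled where the adjusted p is under 0.05. There are 6 filled blue and 18 filled orange points, and Stx1a, Cplx2, Slc17a7 and Slc32a1 change sign between the colours.

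None of the 37 genes passed the test in PG9V against WT brain tissue with edgeR (1.76% of all genes did, 1.62% higher and 0.149% lower). Before adjustment, p was under 0.05 for Syn2, higher, and for Cplx1, lower, against 1560 higher and 902 lower of all 17398 genes. DESeq2 called 1 gene, Syn2, higher (3.31% of all genes). In 30 of 37 genes the log2 fold change was below 0 (48.3% of all genes), with a median of -0.14, against 0.01 over all genes. The PG9V libraries lay wholly below the WT libraries for Syn1, Syt1, Syt4, Syt7, Snap25, Vamp2, Cplx1 and Pclo and wholly above for Syn2, Syt5 and Unc13c, that is 8 and 3 of 37 genes, while 13.2% of all genes lay wholly below and 16.5% wholly above. Cplx1 averaged 509.3 ± 47.5 CPM in PG9V and 665.3 ± 22.1 CPM in WT libraries (-0.39 ± 0.16, adjusted p = 0.333). With the PG9V and WT libraries alone in the fit, Cplx1 and Snap25 were called lower, at -0.40 and -0.32 (adjusted p = 0.0364 and 0.0436, with 1.44% of all genes lower), and without PG9VN replicate 2 in the fit Cplx1 was called lower (adjusted p = 0.0436, with 1.53% of all genes lower).

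Sv2a was the 1 gene of the 37 that passed edgeR's test on all libraries between the mutants, lower in PG9VN (2.70% of the list, against 3.39% of all genes called, 0.667% lower and 2.72% higher). It averaged 393.8 ± 24.5 CPM in PG9VN and 518.1 ± 15.4 CPM in PG9V libraries (-0.40 ± 0.09, adjusted p = 0.0419), with no overlap between their libraries. Its call held without PG9VN replicate 1 or 2 (adjusted p = 0.0397 and 0.0305). It was lost without PG9VN replicate 3 (adjusted p = 0.14), without PG9V replicates 1, 2 and 3 in turn (0.178, 0.0945 and 0.16) and without WT replicates 1, 2 and 3 in turn (0.0885, 0.0613 and 0.0778), with values of -0.41 to -0.37. It was also lost with no filter on low counts (adjusted p = 0.0801), with the 6 mutant libraries alone (0.12) and with the most abundant transcript of each gene alone (0.0697), where Dnm1 was called lower instead (-0.74, adjusted p = 0.0252, with 0.343% of all genes lower). Before adjustment p was under 0.05 for 4 genes lower, namely Sv2a, Cplx1, Rab3c and Pclo, and for Syt5 higher. Of all 17398 genes, 1073 were lower and 1730 higher at that threshold. For 29 of 37 genes the log2 fold change was below 0 (48.2% of all genes), and the median over the list was -0.16. The PG9VN libraries lay wholly below the PG9V libraries for 3 of the 37 genes and wholly above for 2. Of all genes, 8.93% lay wholly below and 12.2% wholly above. Without PG9VN replicate 2, 9 genes were lower, namely Syn1, Syp, Sv2a, Snap25, Cplx1, Rab3a, Unc13c, Dnm1 and Sh3gl2, against 2.12% of all genes. Sh3gl2 and Cplx1 then had the lowest values, at -0.79 and -0.67 (adjusted p = 0.0254 and 0.0123). The 3 comparisons share libraries, so their results are not independent of each other.

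A list of 86 further genes of release, transport and retrieval, also chosen with earlier results of these data known, was read in the same way. In PG9VN against WT 21 fell (24.4%) and 2 rose (2.33%), against 7.22% and 11.5% of all genes, with a median log2 fold change of -0.24. Without PG9VN replicate 2 the counts were 37 and 2 (43.0% and 2.33%), against 11.4% and 13.4% of all genes. The lowest was Slc6a5, the glycine transporter of glycinergic terminals, at 0.29, 0.18 and 0.31 CPM in PG9VN, 3.27, 1.06 and 4.15 CPM in PG9V and 2.84, 1.18 and 3.60 CPM in WT libraries (-3.26 ± 0.65, adjusted p = 0.00798), where 3 counts are 0.085 to 0.11 CPM. Syt2, the fast calcium sensor of many brainstem and thalamic terminals, had 43.4, 22.1 and 26.0 CPM in PG9VN, 132, 113.2 and 128 CPM in PG9V and 146.5, 94.1 and 152.1 CPM in WT libraries (-2.10 ± 0.26, adjusted p = 0.00107). Vamp1, a vesicle SNARE strong in brainstem and spinal cord, had 132, 113.4 and 89.6 CPM in PG9VN, 312.3, 289.5 and 253.3 CPM in PG9V and 313.6, 226.2 and 315.5 CPM in WT libraries (-1.35 ± 0.17, adjusted p = 9.59e-04). In all 3 genes the PG9VN libraries lay below all 6 others, and PG9V overlapped WT. All 3 were called with any 1 library left out (highest adjusted p 0.0314, 0.00741 and 0.00607).

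Slc17a6, the glutamate transporter VGLUT2 of thalamic and other subcortical neurons and also on the list of thalamus markers, had 101.7, 23.0 and 41.8 CPM in PG9VN, 132.6, 145.3 and 123.5 CPM in PG9V and 182, 123.1 and 189.5 CPM in WT libraries (-1.57 ± 0.45, adjusted p = 0.0458). It lost its call without PG9VN replicate 2, at -1.20 (adjusted p = 0.0649), and without any 1 of the other libraries except PG9VN replicate 1, at -1.74 to -1.40 (adjusted p up to 0.127). Rims3, a short RIM protein, and Dnm3, a dynamin of brain, followed at -0.87 and -0.85 (adjusted p = 0.0117 and 0.0289), and at -0.66 and -0.61 without PG9VN replicate 2 (adjusted p = 6.33e-04 and 0.00607). Dnm3 lost its call without PG9VN replicate 3 and WT replicates 1, 2 and 3 in turn (-0.86, -0.84, -0.91 and -0.79, adjusted p = 0.0729, 0.0804, 0.0541 and 0.092). The 2 genes that rose were Rab3d, at 12.5 ± 3.36 CPM in PG9VN and 7.26 ± 1.06 CPM in WT libraries (0.78 ± 0.19, adjusted p = 0.0226), and Dnm2, a dynamin of all cells (0.42 ± 0.09, adjusted p = 0.0126). Without PG9VN replicate 2 they stood at 0.54 and 0.35 (adjusted p = 0.0227 and 0.0123). Rab3d lost its call without WT replicate 1 (0.77, adjusted p = 0.0747) and WT replicate 2 (0.68, adjusted p = 0.0776), and Dnm2 without WT replicate 3 (0.37, adjusted p = 0.0595). In PG9V against WT none of the 86 was called with edgeR (0.149% of all genes lower and 1.62% higher), and 0 with DESeq2. At an unadjusted p under 0.05, 12 were lower and 1 higher, against 902 and 1560 of all 17398 genes. In PG9VN against PG9V 4 of the 86 fell (4.65%) and 0 rose, against 0.667% and 2.72% of all genes. The lowest were Slc6a5, Syt2 and Vamp1 (-3.41, -2.03 and -1.35, adjusted p = 0.0244, 0.0107 and 0.00927). Leaving out 1 library, the call of Vamp1 was lost without PG9V replicate 1 or 3 (adjusted p = 0.0689 and 0.0537), that of Syt2 without these or PG9VN replicate 3 (0.0689, 0.0593 and 0.0532), and that of Slc6a5 without any 1 PG9VN replicate, PG9V replicate 1 or PG9V replicate 3 (up to 0.101).

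The 187 transcripts of the list were also read singly, an analysis added after the data were seen, and 156 of them were tested. In PG9VN against WT 5 of the 156 were called lower and 2 higher. Of all transcripts tested, 1.06% were called lower and 2.2% higher. The largest called decrease among transcripts above the floor in both genotypes was in a Dnm1 transcript (ENSMUST00000078352.11), although Dnm1 as a whole was not called. It had 126.3, 132.7 and 121.1 CPM in PG9VN, 210.9, 187.2 and 232.4 CPM in PG9V and 278.4, 237.1 and 308.5 CPM in WT libraries, with no overlap between any of the genotypes (-1.12 ± 0.12 in PG9VN against WT, adjusted p = 0.0030). Here PG9VN replicate 2 lay with the other PG9VN libraries. Transcripts of Sv2a (ENSMUST00000035371.8) and Cplx1 (ENSMUST00000046892.9) were called lower too, at -0.45 and -0.82 (adjusted p = 0.0267 and 0.0473). Libraries were not left out in turn for transcripts. A further transcript each of Synj1 and Syn2 was called lower from at or near 0 CPM in PG9VN, so no fold is given, and a pair of Rims1 transcripts with identical values was called higher, at 8.93 ± 2.39 CPM in PG9VN and 3.75 ± 0.44 CPM in WT libraries.

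Within Pclo, a long transcript (ENSMUST00000030691.16) had 130.7, 69.7 and 116.8 CPM in PG9VN, 122.5, 141 and 182.2 CPM in PG9V and 204.4, 198 and 194.3 CPM in WT libraries (-0.91 ± 0.23, adjusted p = 0.0801). A shorter one (ENSMUST00000182915.1) had 84.3 to 101.3 CPM in PG9VN and 83.0 to 94.3 CPM in WT libraries (0.03 ± 0.10, adjusted p = 0.931). In Bsn the long transcript (ENSMUST00000035208.13) had 149.7 to 164.7 CPM in PG9VN, 127 to 277 CPM in PG9V and 241.6 to 264.1 CPM in WT libraries, and a shorter one (ENSMUST00000124763.1) had 97.0 to 209.4 CPM in PG9VN and 97.4 to 143.5 CPM in WT libraries. None of these 4 transcripts was called. Such values are estimates that share reads among similar transcripts.

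Over all genes, the fold change in PG9VN against WT moved with transcript length. Its median was 0.24 for genes whose most abundant transcript is under 1000 bases, 0.03 from 2000 to 4000 bases and -0.29 from 8000 bases, where 26.0% of genes were called lower. The 6 presynaptic genes of the longest class, Sv2c, Rab3c, Unc13a, Unc13c, Bsn and Pclo, had a median of -0.58. Of these 6, 2 were lower, beside the 26.0% of all genes in that class. The 19 genes of 2000 to 4000 bases, among them Cplx1, Syt4 and Snap25, had a median of -0.23, with 2 of them lower where 5.28% of all genes in that class were. Sv2a lies in the class of 4000 to 6000 bases, where 1 of 8 presynaptic genes was lower. Over all genes that class had a median of -0.09, with 11.3% lower. By library, the median of the longest class relative to WT was -0.19, -0.52 and -0.22 in PG9VN, -0.17, -0.28 and -0.08 in PG9V and -0.02, 0.02 and 0.00329 in WT replicates 1 to 3. PG9VN replicate 2 was the most extreme. The part of length in the presynaptic results was not tested.

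**Figure D5:**
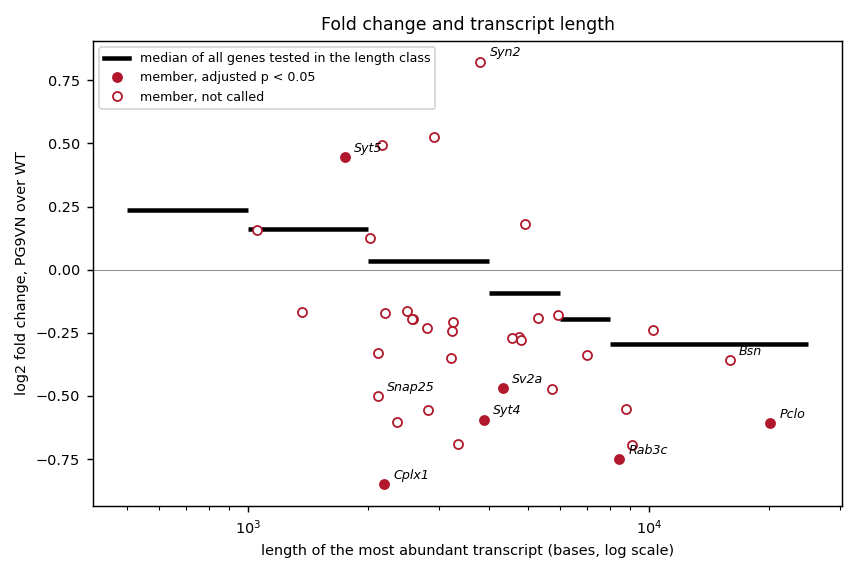
Log2 fold change in PG9VN over WT (vertical axis) against the length of the most abundant transcript in bases (horizontal log axis) for the 37 genes (circles, filled where the adjusted p is under 0.05), with the median of all genes tested in each of 6 length classes as black bars. The bars run from 0.24 in the shortest class to -0.29 in the longest. Of the 5 genes that fell, Pclo and Rab3c are in the longest class, and Cplx1, Syt4 and Sv2a lie below the bars of their shorter classes.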

How the data were processed

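Poly(A) RNA was sequenced from 9 stranded libraries, per the labels' protocols. The deposited table holds the authors' estimated counts of 105129 transcripts, not divided by length or depth (59.6% of them were not whole numbers, within 0.001). The submitters' processing notes name Trimmomatic 0.33, FastQC, HISAT2 2.0.5, kallisto 0.43.1 and mm39; the sources used here do not say which tool gave the counts.

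The test had been planned on gene rows, so the transcripts of a symbol were summed and rounded. Of 177 transcripts whose symbols a spreadsheet had turned into dates, 173 were resolved through their identifiers and 4 left out. edgeR 4.0.16 in R 4.3.3 (TMM, filterByExpr, robust quasi-likelihood, all 9 libraries, 1 coefficient per genotype) tested 17398 genes, at an adjusted p of 0.05. SEs come from that fit. Lengths for TPM came from an annotation of GRCm38 that matched 98.6% of transcripts. Total counts are in the report, and the floor of 3 counts is 0.085 to 0.11 CPM and, like all depth limits, covers counting error only. DESeq2 1.42.0, limma-voom (limma 3.58.1), other scalings, no filter, 6-library fits, the most abundant transcript and leaving out libraries were alternatives. The test was checked on simulated data.

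The 37 genes and the other lists were chosen with earlier results of these data known. The genes named were all 37, Grn, and of the other presynaptic genes the 6 lowest and 6 highest called in PG9VN against WT and up to 3 each way elsewhere. Some items are not reported here. Marker lists are given by counts and levels. Replicates are separate mice.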

Additional observations from a re-analysis of the deposited data

How the results depend on the processing

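No paired analysis was possible because the labels give no replicate numbers or pairing, and the numbers used here follow accession order. Over 16 alternatives, Sv2a and Cplx1 kept their direction and lost their call only without the 2 libraries with almost no Ddx3y counts (adjusted p = 0.0561 and 0.0536). Syt4 was called in 14 of 16, Pclo in 13, Syt5 in 12 and Rab3c in 9, all with an unchanged direction. Without those 2 libraries, 0 presynaptic genes were called in PG9VN against WT (0 lower, 0 higher). In PG9VN against PG9V 0 were called, where 0.0911% of all genes were lower and 1.05% higher. The other presynaptic genes had 10 lower and 0 higher in PG9VN against WT, where 1.76% of all genes were lower and 5.82% higher. In PG9VN against WT, DESeq2 called 7 lower and 2 higher, and the most abundant transcript alone gave 7 lower. The 6 compared libraries alone called Syt4, Sv2a, Cplx1 and Pclo lower and 0 higher. Of all genes, that fit called 3.57% lower and 7.83% higher. Among the other presynaptic genes it called 1 higher (Dnm2), and those it called lower included Vamp1, Syt2, Rims3 and Slc6a5. In PG9V against WT, DESeq2 called 1 (1 higher, against 3.31% of all genes). The 6 libraries alone gave 2 (2 lower) and 2 lower among the other genes (Itsn1 and Stxbp6), against 1.44% of all genes. The most abundant transcript alone gave 1 higher among the other genes (Dnm2), against 1.02% of all genes. In PG9VN against PG9V, 0 were called with no filter, 0 with the 6 libraries alone and 0 lower with transcripts not summed, an alternative added after the data were seen. Of all genes, 0.415% were lower and 2.04% higher with no filter, and 0.135% and 1.04% with the 6 libraries. Of all transcripts, 0.00373% were lower. Among the other presynaptic genes in PG9VN against PG9V, DESeq2 called 9 lower, and the 6 libraries and the most abundant transcript 2 lower each. Of all genes these fits called 2.16%, 0.135% and 0.343% lower.

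Leaving out 1 library at a time, PG9VN against WT gave 3 to 18 calls, with 2 to 17 lower and 0 to 1 higher. The lower count was 17 without PG9VN replicate 2, 3 without WT replicate 1 and 2 without WT replicate 3. The other presynaptic genes gave 10 to 37 lower and 1 to 2 higher. Of all genes, 3.02% to 11.4% were lower and 7.24% to 13.4% higher. PG9V against WT gave 0 to 1 calls (0 to 1 lower), and 0 to 2 lower among the others, against 0.034% to 1.53% of all genes lower. PG9VN against PG9V gave 0 to 9 calls (0 to 9 lower), and 0 to 11 lower and 0 to 1 higher among the others. Of all genes, 0.0113% to 2.12% were lower there and 0.0909% to 4.23% higher. The log2 fold changes in PG9VN against WT that changed sign, none of them called, ranged from -0.35 to 0.14 for Synpr, -0.785 to 0.0467 for Sv2b, -0.0600 to 0.728 for Stx1a, -0.0328 to 0.296 for Cplx2, -0.0468 to 0.388 for Rab3b (-0.0470 without the 2 libraries with almost no Ddx3y counts), -0.38 to 7.55e-05 for Rims1, -0.72 to 0.89 for Slc17a7 and -0.53 to 0.12 for Slc32a1. The cause was not tested. Neither RLE nor DESeq2 scaling moved the median of all genes by over 0.1. These scalings, like TMM, all centre the bulk of the genes near 0, so this cannot show whether the scaling was right. With 3 libraries per genotype, a missed call does not show that a gene did not differ.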
